A study of Xenopus laevis with 18 samples.

Results

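A set of 56 gene models was abundant in tailbud embryos of the African clawed frog Xenopus laevis, close to 0 in cleavage and still low in the neurula, out of 31357 models measured. The models were chosen by their own levels in TPM, a length-corrected share of all transcripts. T, the mean of the libraries of stages 23, 26, 30 and 33, had to be 100 TPM or more. The mean of stages 2, 6, 6.5 and 7 had to lie under 0.1 TPM, and the mean of stages 14, 16 and 18 under 10% of T. The height in the tailbud and the lows in cleavage and neurula are therefore given as descriptions without a test. Stages 0, 8, 8.5, 9, 10, 12 and 20, and the differences between the tailbud libraries, did not enter the rule.

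Each of 18 stages was 1 library of poly(A)+ RNA from whole, untreated embryos of the J strain, so no stage was replicated. The libraries fall into stage 0 (n = 1), cleavage (stages 2, 6, 6.5 and 7, n = 4), blastula (8, 8.5 and 9, n = 3), gastrula (10 and 12, n = 2), neurula (14, 16 and 18, n = 3), stage 20 (n = 1) and tailbud (23, 26, 30 and 33, n = 4). Stages of a group are time points, so each SD is a spread over stages that holds development as well as error. The p-values of the contrasts of groups measure differences against such a spread, taken over all groups. Those of the tailbud trend are set against what is left after a straight line within each group. The labels do not say whether embryos were pooled or came from 1 clutch.

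In the tailbud period of the frog the body axis lengthens after the neural tube has closed. Somites form muscle, and the heart, blood, sense organs and epidermis develop. Cells that specialise in this way often make very large amounts of a few mRNAs, such as those of contractile proteins, globins or structural proteins. This is background only, because the deposited identifiers are not paired with gene symbols and 0 of the 56 matched the reference names, so no role is given to any model and tissue markers could not be looked up. In whole embryos, a change in the number of cells of a type and a change in RNA per cell cannot be told apart.

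The 56 models together rose from a trace to a visible part of the mRNA pool. Summed over the set, the level at stages 14, 16 and 18 was 557, 1075 and 2287 TPM. It stood at 6772 TPM at stage 20, between those stages and the tailbud. At stages 23, 26, 30 and 33 it was 19430, 25116, 32117 and 42442 TPM, and in the last of these the set held 4.30% of all gene-model TPM. The sum was higher at each later stage from 14 on, and it averaged 1306 ± 888 TPM in the neurula (SD over stages, n = 3) and 29776 ± 9911 TPM in the tailbud (n = 4).

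**Figure D1:**
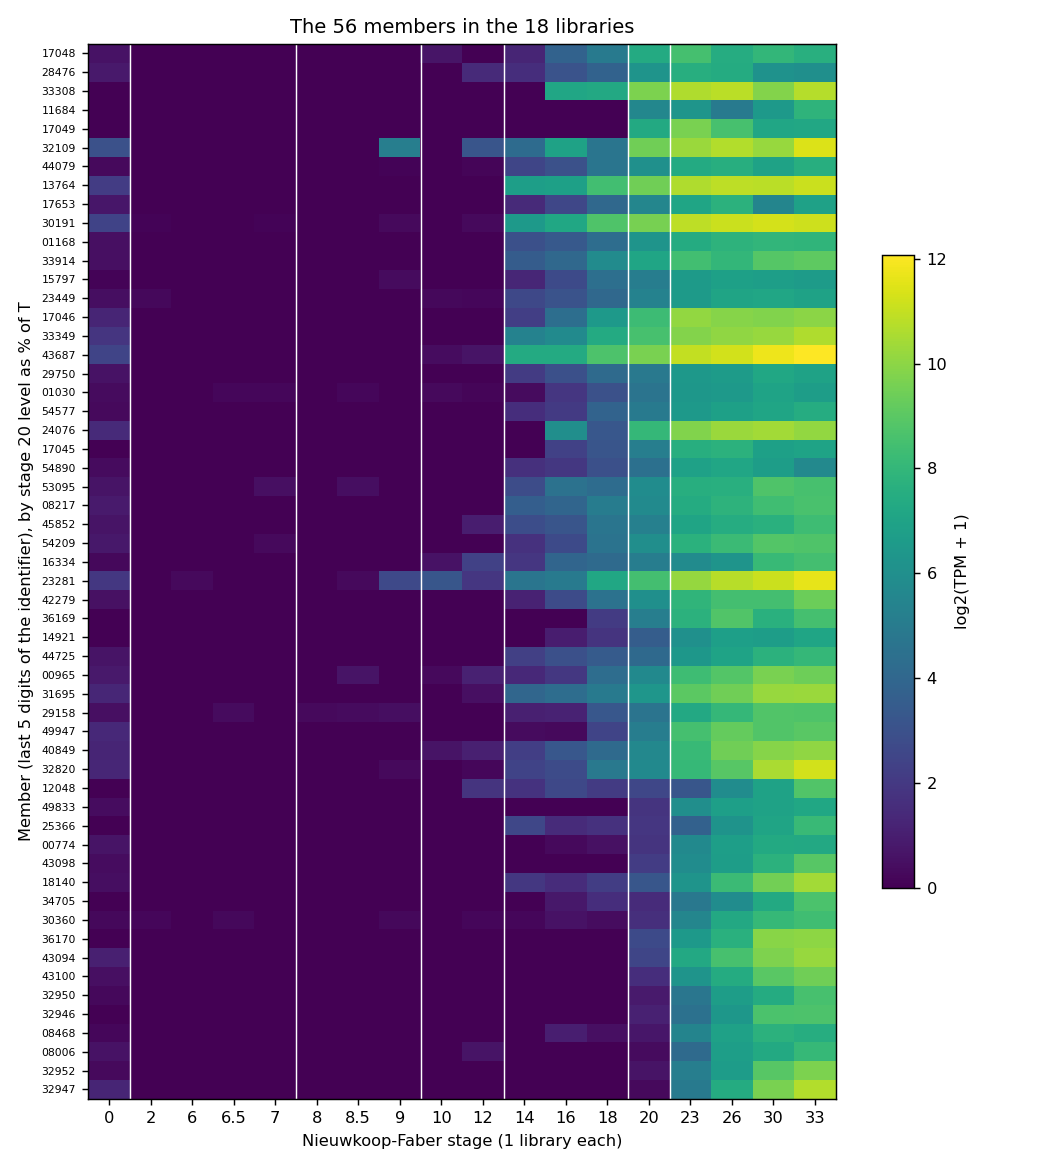
Level of each of the 56 models (rows, ordered by the stage 20 level as a percent of T) in each of the 18 libraries (columns, stages 0 to 33), as log2(TPM + 1) by colour, with white lines between the groups. The rows are dark from stage 2 to stage 12 with few exceptions, 36 models are above 0 at stage 14 and all 56 are above 0 at stage 20, and faint signal returns at stage 0. Of all models measured, 66.9% are above 0 at stage 14, 70.3% at stage 18 and 79.3% at stage 20.

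The levels within the set were uneven. T ranged from 102 to 3063 TPM with a median of 262 TPM. The 9 models with T of 1000 TPM or more held 53.4% of the summed T, and 22 models lay under 200 TPM. XeXenL6RMv10043687m had the highest T, 3063 ± 1030 TPM (SD over stages, n = 4). It was listed at 0 from stage 2 to stage 9, had 0.30 and 0.58 TPM in the gastrula libraries, and then 164, 167, 419 and 807 TPM from stage 14 to stage 20. Its tailbud levels were 2009, 2463, 3477 and 4304 TPM at stages 23, 26, 30 and 33, so every tailbud library lay above every earlier one. XeXenL6RMv10030191m came next with 2220 ± 262 TPM (n = 4). Its tailbud levels were 1884, 2184, 2510 and 2301 TPM, a much flatter course than that of the most abundant model.

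From stage 2 to stage 12 the set was nearly silent. The blastula and gastrula libraries did not enter the rule, but they lie in time between stages that it held low. Low levels there are thus no independent finding. In all, 34 models were listed at 0 in all 9 libraries from stage 2 to stage 12, and 7 reached 1 TPM in any of them. In the libraries of stages 8, 8.5, 9, 10 and 12 the number above 0 was 1, 5, 8, 8 and 17, where 63.0%, 62.3%, 63.2%, 63.2% and 65.8% of all models were. The highest single value was 35.2 TPM, for XeXenL6RMv10032109m at stage 9, which was listed at 0 at stages 8 and 10. In the same order the summed level was 0.23, 1.59, 41.9, 11.03 and 24.96 TPM, so nearly all of the stage 9 sum was that 1 value.

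The gastrula and blastula were compared with limma, a linear model fitted across all 23880 models that passed a filter on low values, on the log2(TPM + 1) scale with p-values adjusted by the Benjamini-Hochberg method over all of them. This scale understates changes of low models. This comparison says little about the set, because 35 of the 56 models were listed at 0 in all 5 libraries and passed the filter only through other stages. They could not be called. Among the 56, 0 were called higher and 0 lower at an adjusted p under 0.05, while 1 was called higher by median-of-ratios scaling and 2 by quantile normalization. Of all models tested 5.57% were called higher and 37.5% lower as deposited. This balance moved with some scalings, with 4289 higher and 3380 lower by median-of-ratios scaling and 2907 and 3643 by quantile normalization. By spike-in scaling 1084 were called higher and 8052 lower. The share of these calls is no yardstick for the set. At an unadjusted p under 0.05 the count was 1 of 56, and 11920 of all 23880 models. The differences ranged from -0.37 to 1.60 with a median of 0, beside a median over all models of -0.66 as deposited and 0 by median-of-ratios scaling. A pair of models outside the set held 38.9% of gene-model TPM at stage 10 and 19.9% at stage 8.5, and was at 0 at stages 8, 9 and 12, which lowers the other shares in those 2 libraries. With all models rescaled without that pair, 1821 of all models were called higher and 8507 lower. For comparison, 86 other models also had T of 100 TPM or more and a cleavage mean under 0.1 TPM but stood at 10% of T or more in the neurula. Of these, 52 were called higher in the gastrula and 0 lower, with a median difference of 2.18. Low cleavage and a raised neurula were part of the choice of the 86, which favours models that rise in between. The difference between the sets is thus a description and was not tested. With a pseudocount of 0.1 the number of the 56 called higher was 4, where 6.35% of all models were called higher and 36.3% lower. With the libraries of both groups fitted alone 3 were called higher and 1 lower, where 1.4% and 29.3% of all models were. That fit had 3 residual degrees of freedom, and the median SE of the 56 was 0.0048, beside 0.56 as reported. Most of the 56 were at 0 in all its libraries, so these calls say little about the set. Without stage 9 the number called higher was 1, where 4.93% of all models were called higher and 30.9% lower. Without stage 10 the gastrula had 1 library, and the median difference of the 56 was 0.

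First appearance fell in the neurula for most models. A model was scored as present where it reached 1 TPM, from stage 8 on, in a library and also in the next one. The first stage was 9 for 1 model, 12 for 6, 14 for 26, 16 for 4, 18 for 4, 20 for 10 and 23 for 5. In the 86 comparison models it was 12 for 40 and 14 for 17, and none of them had it at stage 20 or later. The choice used the neurula levels, so this contrast between the sets is a description. Within the 56, 12 models were listed at 0 at each of stages 14, 16 and 18.

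Stage 20, the last stage before the tailbud group, already separated the models. The stage 20 level as a percent of T had a median of 17.3%, quartiles of 2.16% and 31.8%, and a range from 0.0366% to 68.6%. It was under 2% of T in 13 models, 10% of T or more in 32 and over 50% of T in 3. In the comparison models the lowest value was 25.2% and the median 68.4%. At the top of the 56 was XeXenL6RMv10017048m, which went from 1.40, 12.7 and 29.0 TPM at stages 14, 16 and 18 to 168 TPM at stage 20. It was at 359, 175, 252 and 195 TPM in the tailbud libraries, so its stage 26 and stage 33 levels were close to the stage 20 level and those of stages 23 and 30 were higher. XeXenL6RMv10028476m followed with 75.8 TPM at stage 20, which was 61.7% of T. At the bottom, XeXenL6RMv10032947m was at 0.24 TPM and XeXenL6RMv10032952m at 0.55 TPM at stage 20, after 0 at every stage from 2 to 18.

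Against the gastrula, 43 of the 56 models (76.8%) were called higher at stage 20 and 0 lower by limma at an adjusted p under 0.05, where 14.9% of all models tested were called higher and 2.90% lower. With spike-in scaling 45 of the 56 and 8843 of all 23880 models were called higher. The median difference was 5.07 on the log2(TPM + 1) scale, beside 0.42 over all models, and all 56 differences were above 0. The 43 stood at 2.53 to 821 TPM at stage 20, and the other 13 at 0.24 to 5.61 TPM with differences from 0.01 to 2.72. In the comparison models 75 of 86 were called higher. Stage 20 is 1 library whose spread was taken from the other groups. Among them are cleavage and neurula libraries that the rule held low, which may make the error too small for these models. The tailbud spread also enters and holds the changes within that group, which may make the error too large for models that rise there. Leaving out the first tailbud library gave 47 called higher, and the median SE of the 56 went from 0.751 to 0.648. Leaving out a later tailbud library gave 43 to 45, with a median SE of 0.693 to 0.774. The p-values may thus be too low or too high. Stage 20 lies in time between stages that the choice used, so a level between theirs is no independent finding. The column of stage 20, like those of stage 0 and the tailbud, carries the suffix rr, which the gastrula columns lack and the labels do not explain, so the suffix and the stage cannot be told apart here.

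All 56 models were higher at stage 23 than at stage 20. The ratio of stage 23 to stage 20 had a median of 4.10 and ranged from 1.60 to 126. In the comparison models it had a median of 1.52 and 67 of 86 were higher at stage 23. The tailbud mean is part of the rule, so these ratios are descriptions. Both stages carry the suffix rr.

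Within the tailbud the set did not move as one. The choice used the mean of the 4 libraries but not the differences between them, which were tested as a straight line in stage order and are given as the fitted change from stage 23 to stage 33. All 4 columns carry the suffix rr. By limma at an adjusted p under 0.05, 20 of 56 models (35.7%) were called higher along the tailbud and 2 (3.57%) lower, where 4.15% of all 23880 models were called higher and 2.19% lower. The other 34 did not pass. A low neurula against a high T favours models that come on late, so the share called among the 56 is no independent support for a rise of the set. The median fitted change was 1.20 on the log2(TPM + 1) scale, beside -0.16 over all models, and the range was -2.58 to 5.79. Of the 86 comparison models 2 were called higher and 6 lower, with a median of -0.25.

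Measurement error was read from 37 spike-in RNAs, synthetic RNAs added to each sample, with each divided by all spike-ins together in its library. Of 88 entries, these had a mean of 10 TPM or more and were above 0 in every library. Error at lower levels is thus not covered. Their fitted changes over the same 4 libraries ranged from -1.32 to 0.74. Among the members of the set, 37 lay above that range and 2 below it. The number of all models past that range was not counted. This spread holds preparation and sequencing only, not differences between embryos, and the members were on the deposited scale and not divided by the spike-ins, so the counts are a description. Of the 6 residual degrees of freedom of the fit, 3 came from cleavage and blastula libraries, where 54 of the 56 models stayed under 1 TPM and so add little spread, and 1 came from the neurula libraries, which the rule also held low. With the libraries from stage 14 on alone 18 of the 56 were called higher and 1 lower, where 3.93% and 3.4% of all models were. With the 4 tailbud libraries alone, a fit with 2 residual degrees of freedom, 0 of all 23880 models were called in either direction. In that fit 36 of the 56 had an unadjusted p under 0.05, but the number of all models at that level was not counted. In the fit with all 18 libraries it was 35 of the 56 and 3873 of all 23880 models. The choice favours late rises, so these counts are no independent support. Without stage 23 the numbers called among the 56 were 10 and 0, where 1.72% of all models were called higher and 0.406% lower.

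**Figure D2:**
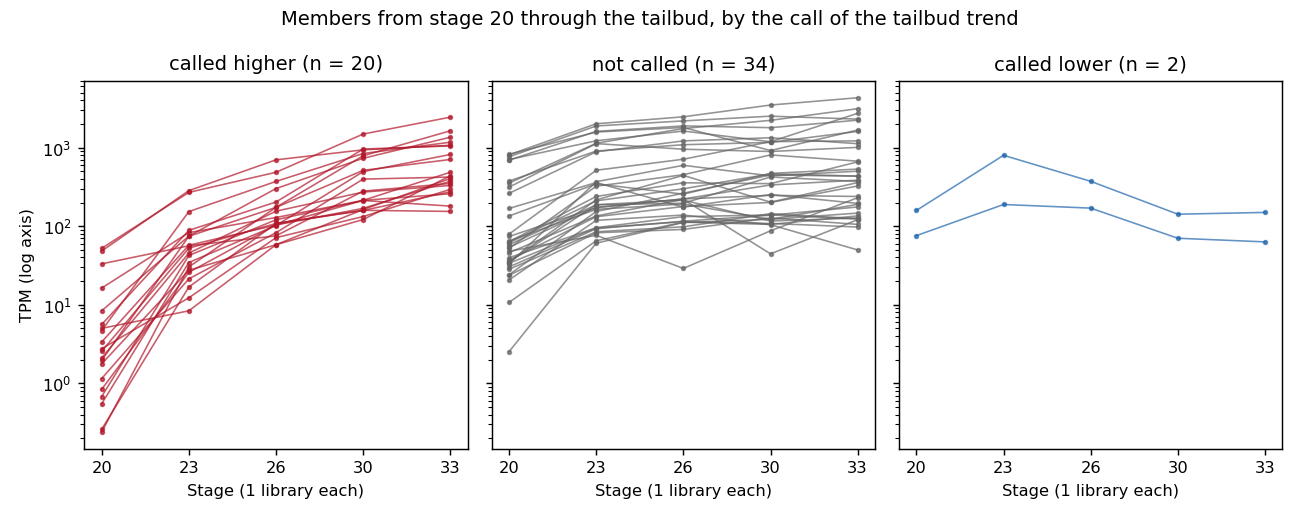
TPM on a log axis at stages 20, 23, 26, 30 and 33 for each of the 56 models, 1 line per model, in panels by the call of the tailbud trend (20 called higher, 34 not called, 2 called lower). The called risers start between 0.24 and 52.2 TPM at stage 20 and stand at 154 to 2437 TPM at stage 33, while the models not called are at 0.420 to 3.004 times their stage 23 level at stage 33.

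Most of the risers had been low at stage 20. The 20 called higher had a median of 1.07% of T at stage 20, and the 34 that did not pass had a median of 23.3%. All 13 models under 2% of T at stage 20 were among the 20, against 7 of the 43 others. Across the 56 models Spearman's rank correlation between the stage 20 percentage and the fitted change was -0.82, a description given without a p because both measures share the tailbud libraries. The 20 risers were 2.93 to 54.0 times higher at stage 33 than at stage 23, with a median of 10.7, and 18 of them had their highest tailbud level at stage 33.

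**Figure D3:**
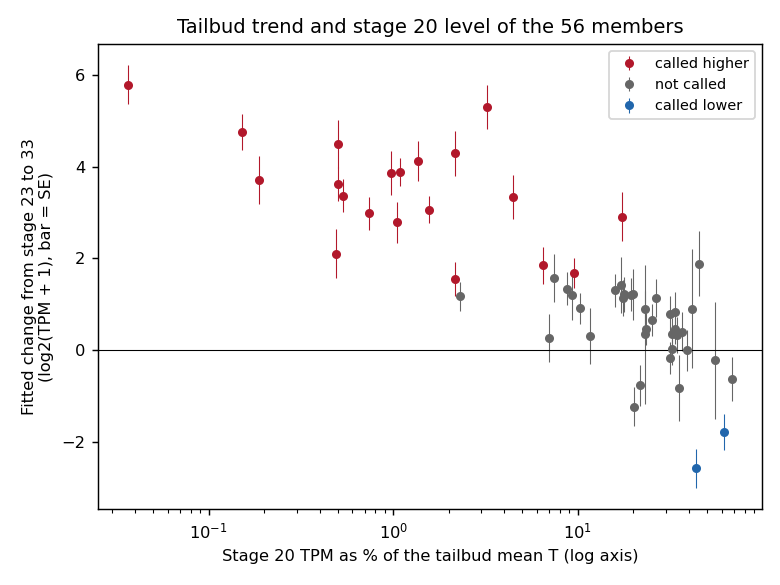
Fitted change from stage 23 to stage 33 on the log2(TPM + 1) scale (vertical axis, bars are SE) against the stage 20 level as a percent of T on a log axis, 1 point per model, coloured by call. The points fall from 5.79 at 0.0366% of T to -2.58 and -1.79 at 43.4% and 61.7% of T.

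XeXenL6RMv10032947m had the largest rise. It went from 30.3 TPM at stage 23 to 174, 787 and 1635 TPM at stages 26, 30 and 33, a fitted change of 5.79 ± 0.43 (SE, limma adjusted p = 6.62e-05). XeXenL6RMv10012048m followed, with 8.37, 58.1, 122 and 436 TPM at the same stages and a change of 5.31 ± 0.47 (SE, limma adjusted p = 0.000153). Unlike the former it had a low level well before the tailbud, with 2.54 TPM at stage 12, 2.38, 5.15 and 3.30 TPM at stages 14, 16 and 18, and 5.01 TPM at stage 20. Each was higher at each later tailbud stage, which 26 of the 56 models were.

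Falling courses were fewer. XeXenL6RMv10017049m was listed at 0 in each library before stage 20. From stage 20 to stage 33 it had 159, 797, 372, 142 and 150 TPM. Its fitted change was -2.58 ± 0.43 (SE, limma adjusted p = 0.00453). XeXenL6RMv10028476m was at 189, 170, 70.2 and 63.1 TPM in the tailbud libraries, a fitted change of -1.79 ± 0.40 (SE, limma adjusted p = 0.0245). Both were thus highest at stage 23. Without stage 23 the changes were -1.96 and -2.12 and neither call held (limma adjusted p = 0.248 and 0.204). With spike-in scaling the changes were -1.58 and -0.80 and neither call held (limma adjusted p = 0.144 and 0.457). With the tailbud libraries alone neither call held (limma adjusted p = 0.0923 and 0.0954). The second call was also lost without stage 33 and without stage 7. It was lost too with a pseudocount of 0.1, with a slope in the tailbud only and with the libraries from stage 14 on. The first call held in 26 of 29 alternatives and the second in 21. Over all alternatives the adjusted p ranged from 0.00154 to 0.248 for the first and from 0.00809 to 0.457 for the second.

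The stage of the highest tailbud level was 33 for 32 models, 30 for 12, 26 for 8 and 23 for 4. In the comparison models it was 33 for 21, 30 for 10, 26 for 27 and 23 for 28. At stage 33 the level was more than 2 times that of stage 23 in 33 of the 56 models and less than 0.5 times in 3, against 6 and 17 of the 86 comparison models. The summed level of the comparison models was 53174, 57969, 50909 and 49936 TPM at stages 23, 26, 30 and 33. The sums of the 2 sets thus came nearer to each other by stage 33, where the 56 models held 4.30% and the 86 models 5.06% of gene-model TPM. These differences between the sets were not tested.

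Some courses were broken. Between neighbouring stages from 14 on, 9 of the 56 models fell more than 2-fold from a level of 10 TPM or more, 2 of them into stage 18, 3 into stage 26, 4 into stage 30 and 1 into stage 33. XeXenL6RMv10032109m was at 17.7, 123 and 24.6 TPM at stages 14, 16 and 18, 704 TPM at stage 20 and 1220, 1624, 1186 and 2727 TPM in the tailbud. Many genes of this species exist as similar copies whose reads a TPM table cannot separate. Whether reads were split differently between copies in these models was not tested. The stage 30 library also held 3.94% of its gene-model TPM in a pair of models that were at 0 in the other tailbud libraries, the same pair as at stages 8.5 and 10. It also held 21.9% at stage 2 and 44.8% at stage 6. Its presence at stage 30 lowers all other shares there by about that amount.

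Some models with neighbouring identifiers had like courses. Of the 56 models, 13 (23.2%) had another of the set within 10 identifier numbers, against 15 of the 86 comparison models (17.4%) within their own set. The labels do not say what the numbering follows, and these models were singled out after their values were seen. The first run had 4 models from XeXenL6RMv10017045m to XeXenL6RMv10017049m. They stood together at 675 TPM at stage 20 and at 2466, 1715, 1402 and 1477 TPM in the tailbud, with each lower at stage 33 than at stage 23. The second run had 4 models from XeXenL6RMv10032946m to XeXenL6RMv10032952m, all listed at 0 at stages 14, 16 and 18. They were together at 2.78 TPM at stage 20 and 112, 462, 1846 and 3246 TPM in the tailbud, and all 4 were called higher. The third run was a pair, XeXenL6RMv10036169m and XeXenL6RMv10036170m, whose ratios of stage 33 to stage 23 were 1.66 and 11.9, with the second called higher. The fourth run had 3 models from XeXenL6RMv10043094m to XeXenL6RMv10043100m, listed at 0 from stage 2 to stage 18. They were together at 10.0 TPM at stage 20 and 285, 648, 1566 and 2360 TPM in the tailbud. All 3 were called higher. Models with T of 99.2 and 95.1 TPM, numbered between and just before them, fell outside the set. From stage 23 to stage 33 these went from 12.0 to 208 TPM and from 1.99 to 206 TPM. If the models of a run are copies of each other, their values are not independent.

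**Figure D4:**
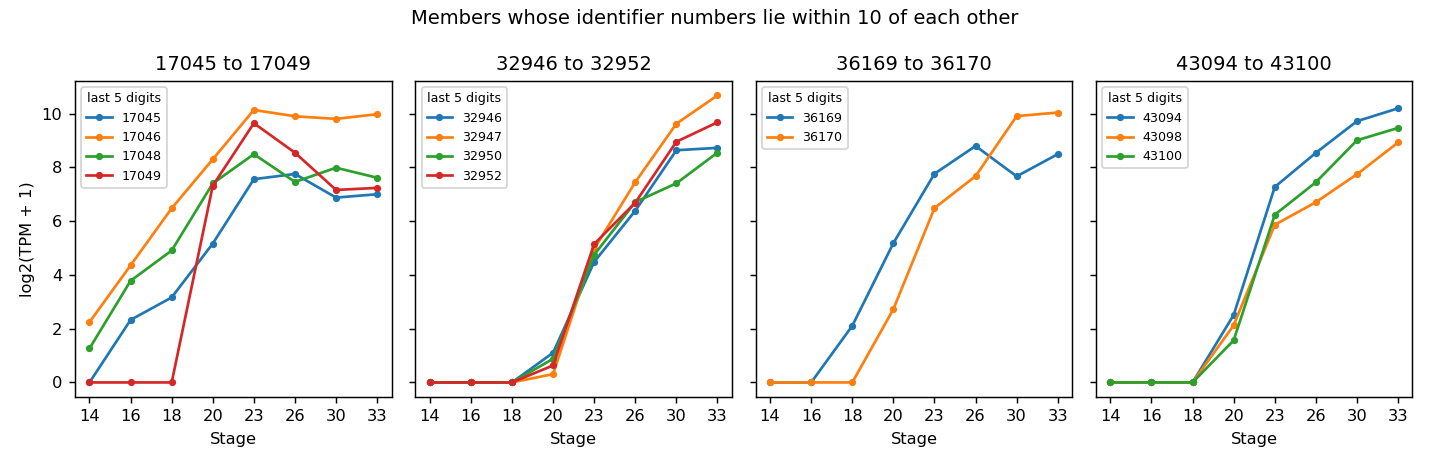
log2(TPM + 1) at stages 14 to 33 for the 13 models whose identifier numbers lie within 10 of another of the set, 1 panel per run and 1 line per model. The second and the fourth run start from 0 at stage 18 and climb to stage 33, whereas the first run is highest at stage 23 or 26 in each of its 4 models.

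At stage 0, the start of development, the set was not at 0. There 45 of the 56 were above 0, against 3, 1, 3 and 4 at stages 2, 6, 6.5 and 7, and 37 were above 0 at stage 0 but listed at 0 in all 4 cleavage libraries. Of all models 65.0% were above 0 at stage 0, and 61.0%, 57.7%, 60.9% and 61.5% at stages 2, 6, 6.5 and 7. The summed level was 49.3 TPM at stage 0 and 0.22 to 0.86 TPM in the cleavage libraries. The highest values were 6.88 TPM for XeXenL6RMv10032109m and 4.58 TPM for XeXenL6RMv10043687m. The cleavage mean was part of the choice, so this step is a description, and stage 0 is 1 library with no replicate.

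The stage 0 levels were higher in models of higher tailbud level. In the 45 models the stage 0 level had a median of 0.180% of T, with quartiles of 0.126% and 0.273% and a range from 0.0585% to 0.610%. Of the 56 models, 32 lay between 0.1% and 0.3% of T. Across the 56 models Spearman's rank correlation with the stage 0 level was 0.59 for T. For stages 23, 26, 30 and 33 it was 0.61, 0.65, 0.62 and 0.52, and for stage 20 it was 0.50. It was 0.57, 0.55 and 0.56 for stages 14, 16 and 18 and 0.31 for stage 12, whose columns lack the suffix rr. All of these are descriptions. The same was seen in the comparison models, of which 75 of 86 were above 0 at stage 0 with a median of 0.250% of T. Their coefficient was 0.73 for T and 0.79, 0.75, 0.65 and 0.62 for stages 23, 26, 30 and 33. For stage 20 it was 0.72, and for stages 14, 16 and 18 it was 0.58, 0.44 and 0.72. Even XeXenL6RMv10032947m, which was listed at 0 from stage 2 to stage 18, stood at 1.35 TPM at stage 0, above its 0.24 TPM at stage 20. The stage 0 column carries the suffix rr, as do stage 20 and all tailbud columns, while the cleavage columns do not. Among all models above 0, the 5th percentile was 0.09 TPM at stage 0, 0.15 TPM at stage 20 and 0.13 to 0.18 TPM in the tailbud libraries. It was 0.28 to 0.39 TPM in the cleavage libraries and 0.21 to 0.36 TPM from stage 8 to stage 18. Lower values were thus listed in all columns with the suffix. The part of the suffix, of low-level detection and of RNA from other libraries in the stage 0 values was not tested.

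**Figure D5:**
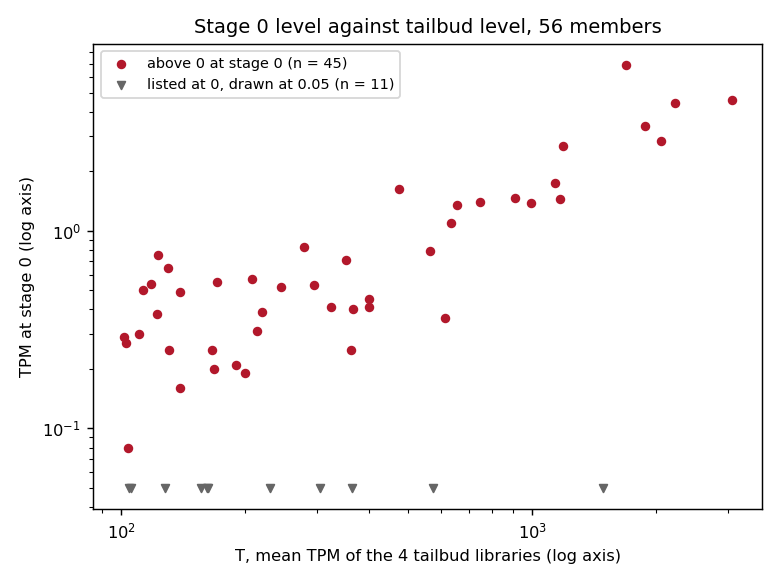
TPM at stage 0 against T, the mean of the 4 tailbud libraries, both on log axes, 1 point per model, with the 11 models listed at 0 at stage 0 drawn as triangles at 0.05. The 45 points rise along with T, from 0.08 TPM to 6.88 TPM.

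The models most like XeXenL6RMv10043687m outside the set were found by Spearman's rank correlation over the 18 libraries among 1319 models with T of 100 TPM or more. XeXenL6RMv10031066m had a coefficient of 0.996 and was at 102 TPM at stage 12 and at 1026, 1179, 2218 and 1945 TPM in the tailbud. It thus came on earlier, in the late gastrula. XeXenL6RMv10009169m had a coefficient of 0.993 and was at 8.55, 25.1 and 47.4 TPM at stages 14, 16 and 18 and at 155, 212, 290 and 360 TPM in the tailbud. This coefficient over these libraries mainly reads the shared order of stages and the shared zeros.

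Models lay close to each threshold on either side. The 2 lowest T inside were 102 and 103 TPM, the 2 highest outside 98.7 and 99.2 TPM, and 49 models met the other limits with T between 50 and 100 TPM. The model at 99.2 TPM lay among the numbers of the fourth run of identifiers. The cleavage means nearest the limit were 0.09 and 0.0975 TPM inside and 0.105 and 0.115 TPM outside, and 20 models met all but that limit. One of these lay in the fourth run of identifiers, XeXenL6RMv10043096m, which was at 0.71 TPM at stage 7 and rose from 4.64 TPM at stage 20 to 82.8, 169, 652 and 797 TPM. The neurula means nearest the limit were 9.90% and 9.97% of T inside and 10.4% and 10.5% outside.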

How the data were processed

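Per the labels' protocols, mRNA was enriched with oligo(dT) beads and made into ScriptSeq libraries with 10 cycles of amplification. The authors deposited TPM for 31357 gene models and 88 spike-in entries in 18 libraries. CASAVA 1.8.2, Trimmomatic, Bowtie and RSEM appear in the submitters' processing notes. No source used here gives their roles or the genome build. TPM keeps no read depth, so no counting interval can be given, and a zero may be a failed estimate. A TPM also depends on what else is in the library and, after poly(A) selection, on tail length.

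Columns were matched to samples by stage. Tests were two-sided on log2(TPM + 1), by limma 3.58.1 under R 4.3.3 with the variance trended on the mean and with Benjamini-Hochberg adjustment over the 23880 models at 1 TPM or more in at least 2 libraries. Both contrasts of groups used the means of 7 groups (11 residual degrees of freedom). The tailbud trend added a slope within each group of 2 or more libraries (6 residual degrees of freedom). The fits were also run on simulated data with independent errors of the same size in every group. That setting does not test what unreplicated stages or groups held low by the rule do to the error. Summaries used Python 3.11.15 with pandas 2.3.3.

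Models and comparison sets were chosen with earlier results of these data known. The named models were, at most 2 per end, those with the highest T, the largest called trends, the highest and lowest stage 20 percent of T, the highest stage 0 level, the nearest profile, and the thresholds. XeXenL6RMv10043096m and the identifier runs, with the models beside them, were chosen after their values were seen.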

Additional observations from a re-analysis of the deposited data

Results flagged for a closer look

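The summed level of the 56 models at stage 0, 49.26 TPM, stood above the level of each of the 4 cleavage libraries, whose sums lay between 0.22 and 0.86 TPM. Stage 0 entered no comparison of the report as a tested group, and it is 1 library. XeXenL6RMv10043096m, which is outside the set, stood at 0.71 TPM at stage 7 and at 0 in the other cleavage libraries, which put stage 7 apart by Dixon's criterion for 4 values (0.829). With the other cleavage values all at 0, any value above 0 would have been put apart, so the flag says nothing about its size. It was the only case in 38 groups of 4 looked at, the tailbud and cleavage libraries of 18 named models and of the summed set. Many of the cleavage groups were at 0 throughout and the tailbud libraries are a time course, so no chance rate can be given.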

How the results depend on the processing

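No paired analysis was possible because each stage is 1 library and the labels give no replicate numbers. Of the 56 models, the number called higher along the tailbud was 20 as reported, 31 with median-of-ratios scaling, 36 with spike-in scaling and 0 with the 4 tailbud libraries alone, and 10 to 26 when 1 library was left out. The share of all 23880 models moved too, from 4.15% called higher as reported to 10.1% and 10.3% with these scalings. It was 0 with the tailbud libraries alone, and 1.72% and 6.02% in the fits that gave 10 and 26. The number called lower was 2 as reported, 1 with a pseudocount of 0.1, with a slope in the tailbud only or with libraries from stage 14 on (an alternative chosen after seeing the data), 0 with spike-in scaling or the tailbud libraries alone, and 0 to 2 when 1 library was left out. Of all models 2.19% were called lower as reported, 0.632% with spike-in scaling and 0 with the tailbud libraries alone. Spike-in scaling moved the median trend of all models from -0.16 to 0.69. XeXenL6RMv10032947m and XeXenL6RMv10012048m kept their call in 28 of 29 alternatives, all but the tailbud libraries alone (limma adjusted p = 0.0782 for both). XeXenL6RMv10017049m kept its call in 26 and XeXenL6RMv10028476m in 21. No alternative reversed the direction of any of these. The other named models were not followed through the alternatives. For the gastrula against the blastula the number called higher was 0 as reported, 4 with a pseudocount of 0.1 and 1 with median-of-ratios scaling. It was 2 with quantile normalization and 3 with the 5 libraries of both groups alone. Of all models 5.57%, 6.35%, 18%, 12.2% and 1.4% were called higher in these fits. When 1 library outside the gastrula was left out the number was 0 to 1, where 4.05% to 5.76% of all models were called higher. The number called lower was 0, and 1 with the 5 libraries alone, where 37.5% and 29.3% of all models were. At stage 20 the number called higher was 43 as reported, 49 with a pseudocount of 0.1 and 41 with no filter on low values. Of all models tested 14.9%, 15.2% and 12.1% were called higher in these fits. When 1 library outside the gastrula and stage 20 was left out, 43 to 47 were called, where 13.7% to 19.9% of all models were. Without stage 10 or without stage 12 the gastrula had 1 library, and the median difference of the 56 was 4.92 or 5.11. Without stage 20 itself there is no contrast. The summed stage 0 level was 0.165% of the tailbud mean as deposited and 0.0318% with spike-in scaling, where 11.2% of the stage 0 TPM and 1.49% of the stage 33 TPM were spike-ins. The cause of these shifts was not tested. The number of reads is unknown, so values under about 1 TPM carry an error that cannot be stated.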
